A study of Mus musculus with 6 samples.

Results

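The interferon response and antigen presentation genes described here are a set of 45 genes chosen by name: interferon receptors, the transcription factors that act in interferon signalling, antiviral effectors and GTPases that interferon induces, genes of major histocompatibility complex (MHC) class I and class II presentation, and 2 chemokines. A gene was measured where the array's annotation gives a probe set that gene's symbol alone, and where several probe sets carry it the one with the highest mean signal was taken. By this rule 40 of the 45 were measured, among 8251 genes read in the same way from 12422 probe sets. No probe set had the symbol of *Irf2*, *Stat2*, *Oas1a*, *Oasl2* or *Bst2* alone, and these 5 were not analysed here. Of the 40 measured members, 9 had more than 1 probe set, and the 40 together had 52.

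Liver Insulin Receptor Knockout (LIRKO) mice (Cre+/-, IR lox/lox, labelled IR flox/flox albumin:CRE +) were compared with their Flox littermates (Cre-/-, IR lox/lox, labelled IR flox/flox albumin:CRE -), so that both groups carried the floxed insulin receptor alleles and only LIRKO mice carried Cre. The albumin promoter drives Cre in hepatocytes, and macrophages and endothelium keep the receptor gene. All mice were males of 2 to 3 months on a mixed genetic background that included C57BL/6, FVB and DBA, fed chow and not fasted. Liver RNA was hybridized to 3 LIRKO and 3 Flox Affymetrix mouse genome arrays each of which held RNA pooled from 2 to 3 mice, and replicates are therefore pools rather than single animals. Values are log2 signals after robust multichip averaging (RMA), a method that corrects background, scales arrays to each other and sums the probes of a probe set, and differences are LIRKO minus Flox on that log2 scale.

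Interferons are cytokines that cells release on viral or microbial challenge. Type I interferons signal through IFNAR1 and IFNAR2 and type II interferon through IFNGR1 and IFNGR2, and transcription factors, IRF proteins among them, then bind the promoters of target genes. MHC class I molecules show peptides from inside almost any cell to cytotoxic T cells, whereas class II molecules show peptides from outside, mainly on macrophages, dendritic cells and B cells, and in liver the resident macrophages are the Kupffer cells.

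Promoter stretches of 7 members are shown because they hold the letters that interferon-activated factors are known to bind, and because some of these genes read lower on every LIRKO array while others did not. The sequences are from RefSeq (build GRCm38.p6), each from the 250 bases before the start site on the gene's own strand, 5′ to 3′. Capitals mark matches on either strand to GAAANNGAA, a repeat found in interferon-stimulated response elements, or for *Irf1* to TTCNNNGAA, the form of the gamma-activated site, an element of promoters that type II interferon induces.
Isg15: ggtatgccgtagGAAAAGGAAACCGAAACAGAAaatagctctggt
Ifit1: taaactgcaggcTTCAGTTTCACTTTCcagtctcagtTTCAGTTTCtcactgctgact
Irgm1: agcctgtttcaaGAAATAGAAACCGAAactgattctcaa
Igtp: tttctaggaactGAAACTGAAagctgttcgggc
Gbp2: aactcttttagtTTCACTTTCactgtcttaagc
B2m: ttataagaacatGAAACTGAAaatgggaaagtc
Irf1: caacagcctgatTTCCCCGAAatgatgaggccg
The *Isg15* stretch lies at chr4:156200864-156200908 on the minus strand, with 3 overlapping matches, and that of *Ifit1* at chr19:34640768-34640825 on the plus strand, also with 3. The *Irgm1* stretch lies at chr11:48871424-48871462 on the minus strand and holds 2 matches. The stretches of *Igtp* (chr11:58199510-58199542), *Gbp2* (chr3:142620593-142620625), *B2m* (chr2:122147536-122147568) and *Irf1* (chr11:53769912-53769944) lie on the plus strand and have 1 marked match each. The *Igtp* stretch also holds 1 match to TTCNNNGAA, left in lower case.

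Of the 45 members, 37 had an entry in the promoter table, and *Mx1*, *Mx2*, *Iigp1*, *Usp18*, *Tap2*, *H2-Ab1*, *Cd74* and *Ciita* had none. GAAANNGAA occurred in the 250 bases before the start of 15 of the 37 (40.5%), against 8.18% of 27025 genes in the table. TTCNNNGAA occurred in 9 of the 37 (24.3%), against 8.13% of all genes, and the 2 motifs can share letters where one runs into the other. Among measured members with an entry, GAAANNGAA was found for 5 of the 13 whose LIRKO arrays all lay below the Flox arrays and for 6 of the other 19, and TTCNNNGAA for 1 of the 13 and 5 of the other 19. These are matches of letters in a window and show no binding.

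The arrays were checked against their labels first. The *Insr* probe set, which may or may not lie in the deleted part of the gene, read 5.37, 5.99 and 6.06 on LIRKO 1, 2 and 3, against 5.45, 5.22 and 5.38 on Flox 1, 2 and 3, so that it does not show the deletion. Hepatocyte markers fitted the liver label: of 8 listed, 6 were measured, with a median level of 12.21, 10.97 and 11.62 on the LIRKO arrays and 12.31, 12.13 and 12.24 on the Flox arrays. LIRKO 2 and LIRKO 3 stood apart in a way that followed signal level. When all probe sets were put in 10 groups by their Flox level, the median of the 1243 brightest read -0.01, -1.09 and -0.89 relative to Flox on LIRKO 1, 2 and 3, while the medians of the 1242 dimmest were -0.03, 0.23 and 0.15. The sources used here do not say if the 6 arrays went through a single normalization. The values of LIRKO 1 and the medians of probe sets of similar level are therefore set beside the results below.

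Across the 40 members more genes read lower than higher in LIRKO liver, and none passed the test across the array. In limma with Benjamini-Hochberg adjustment, 0 members were higher and 0 were lower at an adjusted p under 0.05, where 0.0606% of all genes passed in each direction, and members' adjusted p ran from 0.237 to 0.952. At an unadjusted p under 0.05, 13 members (32.5%) were lower, against 15.6% of all genes, and 2 (5%) were higher, against 7.13%. The methods' t-test, also unadjusted, called 3 lower (7.5%, against 3.71% of all genes) and 1 higher (2.5%, against 2.46%), and after adjustment it called 0. All 3 LIRKO arrays lay below all 3 Flox arrays for 14 members (35%), against 16.7% of all genes, and above them for 2 (5%), against 9.65%. The members' median difference was -0.18, against -0.01 for all genes, with 33 of 40 below 0.

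Array by array, the members' median difference from Flox was -0.06, -0.24 and -0.28 for LIRKO 1, 2 and 3, against -0.01, -0.03 and -0.03 for all genes. The same median was -0.07, 0.03 and 0.05 on Flox 1, 2 and 3. By this measure LIRKO 1 lay within the Flox arrays, and LIRKO 2 and LIRKO 3 lay below them. On LIRKO 1 alone, which did not carry the shift with level, 19 members (47.5%) lay below all 3 Flox arrays, against 30.5% of all genes, and 7 (17.5%) lay above them, against 25.6%. More members than not read below the median of probe sets of similar level on each LIRKO array: 26, 29 and 32 of the 40 did so for LIRKO 1, 2 and 3. The calls turned on LIRKO 1. Without it 15 members (37.5%) passed as lower, against 30% of all genes, and 2 (5%) as higher, against 20.7%, in a fit whose 2 LIRKO arrays both carried the shift. The 15 were *Ifnar1*, *Irf5*, *Isg15*, *Ifit1*, *Ifi35*, *Cd74*, all 4 immunity-related GTPases and all class I genes measured but *Tap2*, and the 2 were *Usp18* and *H2-DMa*. With LIRKO 1 as the only LIRKO array and the spread taken from the Flox arrays, 1 member (2.5%), *Usp18*, passed as higher, against 0.509% of all genes, and 0 as lower, against 0.327%.

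**Figure D1:**
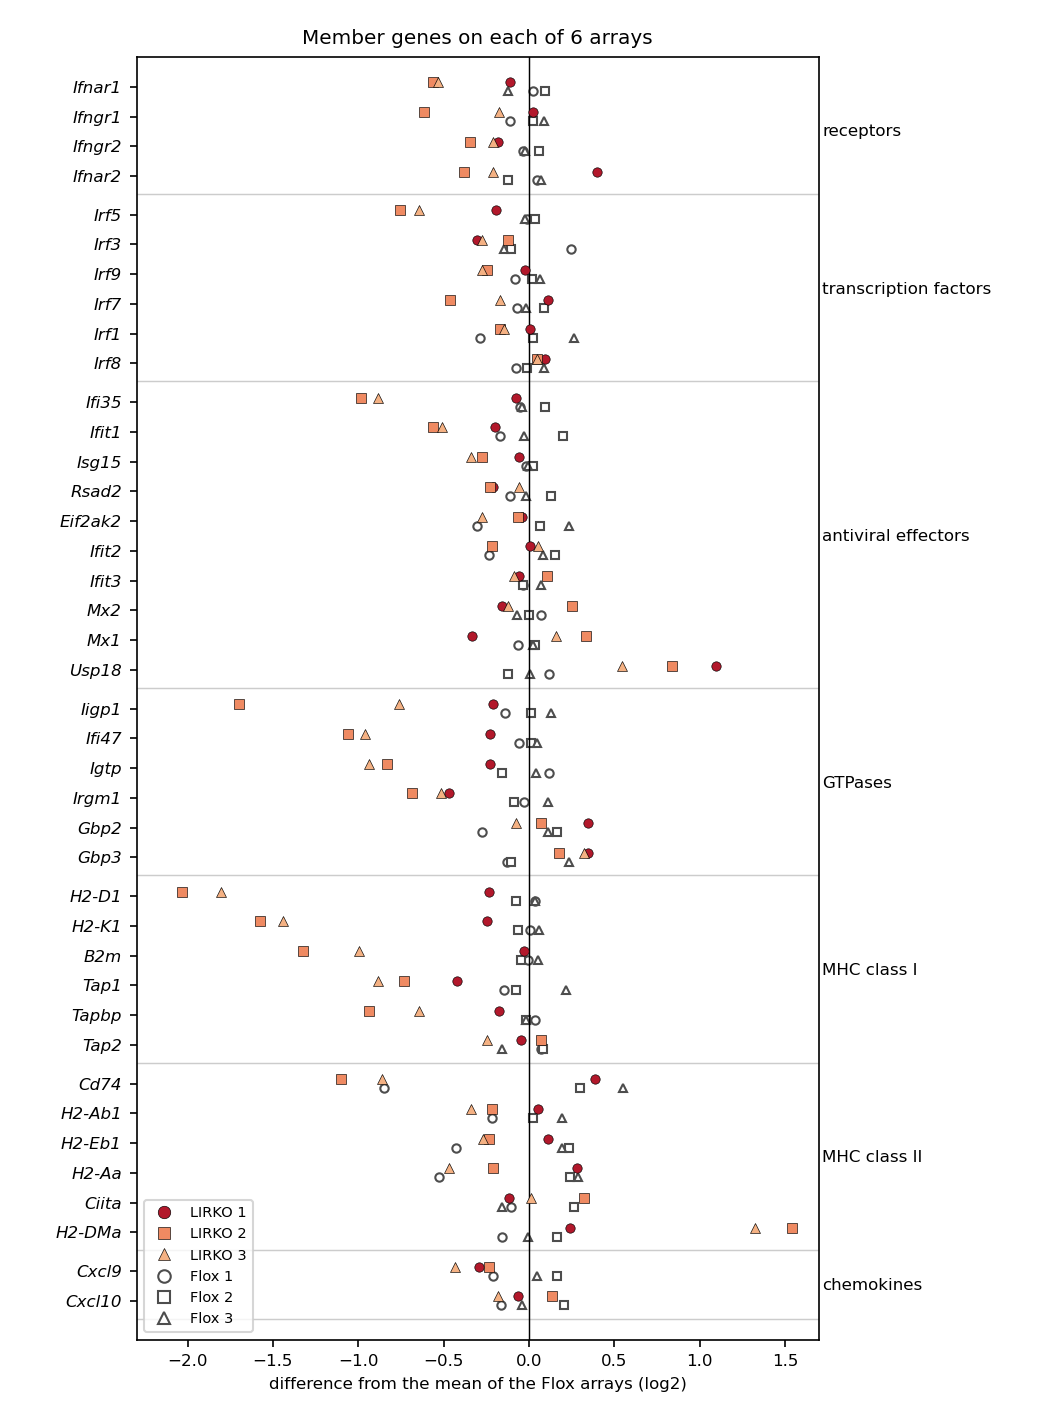
Value of each array less the Flox mean (log2, horizontal axis) for the 40 measured members, grouped by role; filled symbols are LIRKO arrays, open symbols are Flox arrays, and each symbol is 1 pool of mice. LIRKO symbols lie to the left of all Flox symbols for 14 genes, among them 4 GTPases and 4 class I genes, and to the right for *Usp18* and *H2-DMa*.

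**Figure D2:**
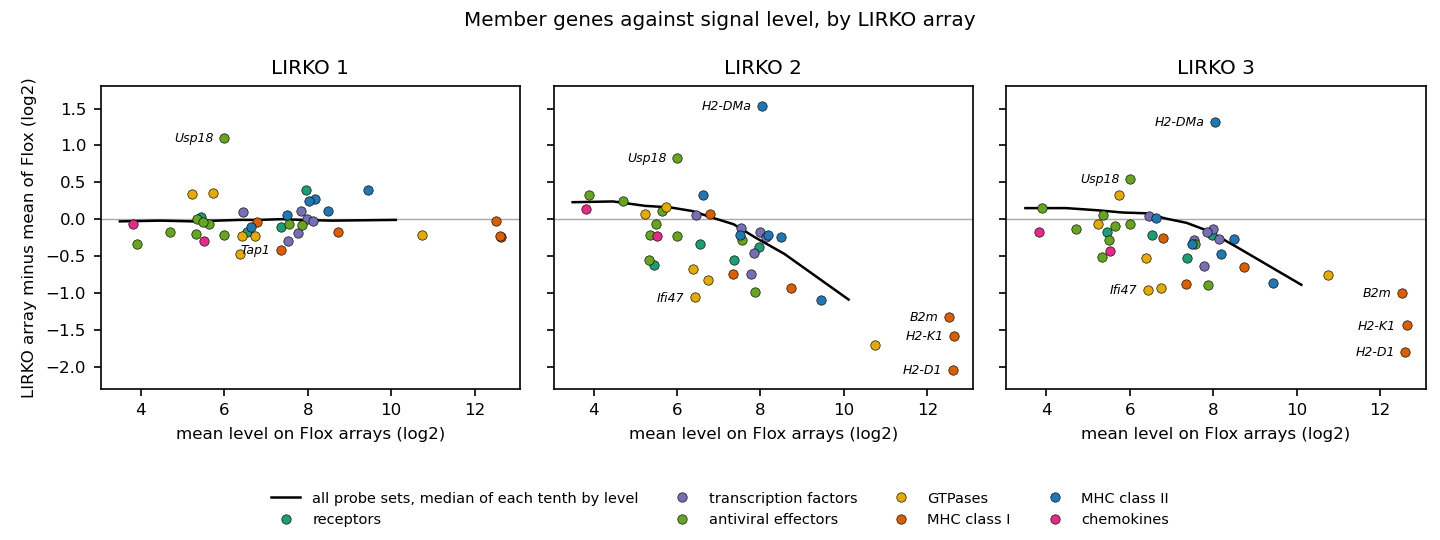
Value of each LIRKO array less the Flox mean (log2, vertical axis) against mean Flox level (log2, horizontal axis) for the members, coloured by role; the line joins the median of each of 10 groups of all probe sets. The line is near 0 on LIRKO 1 and drops to -1.09 and -0.89 at high signal on LIRKO 2 and LIRKO 3, where *B2m*, *H2-K1* and *H2-D1* lie.

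The 4 interferon receptor chains had a median difference of -0.25, and of -0.04, -0.47 and -0.21 on LIRKO 1, 2 and 3, with 2 of the 4 above Flox on LIRKO 1. *Ifngr2*, the signalling chain of the type II receptor, read 6.36, 6.20 and 6.33 on LIRKO 1, 2 and 3, against 6.51, 6.60 and 6.52 on Flox 1, 2 and 3. Every LIRKO array lay below every Flox array, and the difference was -0.24 (standard error 0.11, limma adjusted p = 0.248). *Ifnar1*, a chain of the type I receptor, read 7.25, 6.80 and 6.83 in LIRKO, against 7.39, 7.46 and 7.24 in Flox. LIRKO 1 lay within the Flox values by a narrow margin and the other two lay below them, with a difference of -0.40 (standard error 0.16, limma adjusted p = 0.237). *Ifngr1*, the ligand-binding chain for type II interferon, read 5.47, 4.83 and 5.27 in LIRKO and 5.33, 5.47 and 5.53 in Flox, a difference of -0.25, with LIRKO 1 among the Flox values. *Ifnar2* had no settled direction, at 8.36, 7.58 and 7.75 in LIRKO and 8.01, 7.84 and 8.03 in Flox: LIRKO 1 was the highest of the 6 arrays, and the mean difference of -0.06 became 0.08 after cyclic loess, which removes the part of a shift that follows signal level.

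Of the transcription factors, 6 of 8 were measured, with a median difference of -0.18 that came to -0.04 after cyclic loess and was -0.01 on LIRKO 1. *Irf5*, which drives inflammatory cytokine genes in myeloid cells, read 7.58, 7.02 and 7.13 on LIRKO 1, 2 and 3, against 7.76, 7.81 and 7.75 on Flox 1, 2 and 3. The Flox pools were close to each other and all LIRKO pools lay below them, at a difference of -0.53 (standard error 0.17, limma adjusted p = 0.237) that was -0.45 after cyclic loess. It stood at -0.19, -0.75 and -0.64 on LIRKO 1, 2 and 3, beside medians of -0.01, -0.25 and -0.16 for probe sets of similar level. *Irf3*, which induces interferon genes once viral nucleic acid is sensed, read 7.23, 7.41 and 7.26 in LIRKO, against 7.78, 7.43 and 7.39 in Flox, with LIRKO 2 between the Flox values. *Irf7*, which amplifies type I interferon, read 7.96, 7.39 and 7.68 in LIRKO and 7.78, 7.94 and 7.83 in Flox, with LIRKO 1 above every Flox array. *Irf9*, the DNA-binding part of the factor that type I interferon activates, read 8.11, 7.89 and 7.86 in LIRKO and 8.05, 8.15 and 8.20 in Flox. The groups overlapped for *Irf3*, *Irf7* and *Irf9*, whose differences were -0.23, -0.17 and -0.18. A dimmer *Irf3* probe set differed by -0.15 and a dimmer *Irf7* probe set by 0.07, so that those of *Irf7* disagree in direction. *Irf1*, which holds a gamma-activated site among the sequences above, read 7.99, 7.82 and 7.84 in LIRKO and 7.70, 8.01 and 8.25 in Flox, so that its LIRKO values all fell inside the Flox range. *Irf8*, a factor of myeloid cells, read 6.55, 6.50 and 6.50 in LIRKO and 6.38, 6.44 and 6.54 in Flox, also with overlap.

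Among the antiviral effectors, 10 of 13 were measured, 3 lay wholly below Flox and 1 lay wholly above, where 16.7% and 9.65% of all genes did so, and the median difference was -0.09. *Usp18* encodes the protease that takes the ubiquitin-like protein ISG15 off its targets and that restrains signalling from the type I receptor. Its levels were 7.09, 6.83 and 6.54 on LIRKO 1, 2 and 3, against 6.11, 5.87 and 6.0 on Flox 1, 2 and 3. Each LIRKO pool was above each Flox pool, LIRKO 1 furthest, and the difference was 0.82 (standard error 0.17, 1.77-fold, limma adjusted p = 0.237), or 0.79 after cyclic loess. On LIRKO 1 alone the difference was 1.10 (limma adjusted p = 0.00905, with 1 array against 3 and the spread of the Flox arrays only). Probe sets of similar level had medians of -0.02, 0.16 and 0.09 on LIRKO 1, 2 and 3, against 1.10, 0.83 and 0.54 for *Usp18*.

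*Isg15* itself went the other way by a small amount. It read 7.51, 7.29 and 7.23 on LIRKO 1, 2 and 3, against 7.55, 7.59 and 7.56 on Flox 1, 2 and 3, with no overlap but with LIRKO 1 only just below, and a difference of -0.22 (standard error 0.12, limma adjusted p = 0.288). *Ifit1*, which binds foreign RNA, read 5.13, 4.77 and 4.82 in LIRKO, against 5.16, 5.53 and 5.30 in Flox. The difference of -0.43 (standard error 0.16) stood against medians of 0.18 and 0.12 for probe sets of similar level on LIRKO 2 and LIRKO 3, and after cyclic loess it was -0.52. *Ifi35*, an interferon-induced leucine zipper protein, read 7.79, 6.88 and 6.98 in LIRKO and 7.81, 7.96 and 7.82 in Flox. Its difference of -0.65 (standard error 0.24) came from LIRKO 2 and LIRKO 3, at -0.99 and -0.89 beside medians of -0.25 and -0.16 for probe sets of similar level, while LIRKO 1 was at -0.08. After cyclic loess it was -0.57.

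The other antiviral effectors overlapped between the groups. *Rsad2*, which encodes the antiviral enzyme viperin, read 5.79, 5.77 and 5.94 in LIRKO and 5.89, 6.13 and 5.98 in Flox. The translation-blocking kinase gene *Eif2ak2* read 5.46, 5.44 and 5.23 in LIRKO and 5.20, 5.57 and 5.74 in Flox. Both relatives of *Ifit1* lay near Flox. *Ifit2* read 5.35, 5.13 and 5.40 in LIRKO and 5.11, 5.50 and 5.43 in Flox, and *Ifit3* read 5.58, 5.74 and 5.55 in LIRKO and 5.60, 5.60 and 5.71 in Flox. *Mx1*, a dynamin-like antiviral GTPase, read 3.57, 4.24 and 4.06 in LIRKO and 3.84, 3.94 and 3.93 in Flox, with LIRKO 1 the lowest and LIRKO 2 the highest of the 6. *Mx1* and *Mx2* have dim signals, at percentiles 8.67 and 17.7 of all probe sets.

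The interferon-inducible GTPases divided by family on these arrays, a contrast that was not itself tested. All 4 immunity-related GTPases, which act on the vacuoles of intracellular microbes, lay wholly below Flox, where 16.7% of all genes did so. The 2 guanylate-binding proteins did not. *Irgm1*, which regulates the others, read 5.93, 5.71 and 5.88 on LIRKO 1, 2 and 3, against 6.37, 6.31 and 6.51 on Flox 1, 2 and 3. The LIRKO pools were close together and well clear of Flox, and the difference was -0.56 (standard error 0.12, 0.680-fold, limma adjusted p = 0.237), with LIRKO 1 at -0.47. *Ifi47* read 6.20, 5.37 and 5.47 in LIRKO, against 6.37, 6.44 and 6.48 in Flox, a difference of -0.75 (standard error 0.23). *Igtp* read 6.51, 5.91 and 5.80 in LIRKO, against 6.86, 6.58 and 6.78 in Flox, a difference of -0.66 (standard error 0.21). For both, LIRKO 1 lay just below the lowest Flox array, at -0.23 from the Flox mean, and the other LIRKO arrays lay far below.

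These 3 genes have middling signals, at which LIRKO 2 and LIRKO 3 read near or slightly above Flox in general: the medians of probe sets of similar level were 0.11 and 0.08 for *Irgm1* and *Ifi47*, and 0.02 and 0.01 for *Igtp*. After cyclic loess their differences were -0.61, -0.80 and -0.70. *Iigp1* has a bright probe set and read 10.53, 9.04 and 9.98 in LIRKO, against 10.60, 10.75 and 10.87 in Flox. Its difference of -0.89 (standard error 0.35) stood beside medians of -1.09 and -0.89 for probe sets of similar level on LIRKO 2 and LIRKO 3, and came to -0.27 after cyclic loess. The other *Iigp1* probe set differed by -0.50 (standard error 0.22). *Gbp2* read 5.57, 5.30 and 5.15 in LIRKO and 4.95, 5.39 and 5.34 in Flox, and *Gbp3* read 6.07, 5.90 and 6.05 in LIRKO and 5.60, 5.62 and 5.96 in Flox. On LIRKO 1 both guanylate-binding genes lay above every Flox array, the reverse of the immunity-related GTPases. Of all genes, 25.6% lay above every Flox array on LIRKO 1 and 30.5% lay below. *Igtp*, *Irgm1*, *Gbp2* and *Gbp3* all have GAAANNGAA before their start sites.

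**Figure D3:**
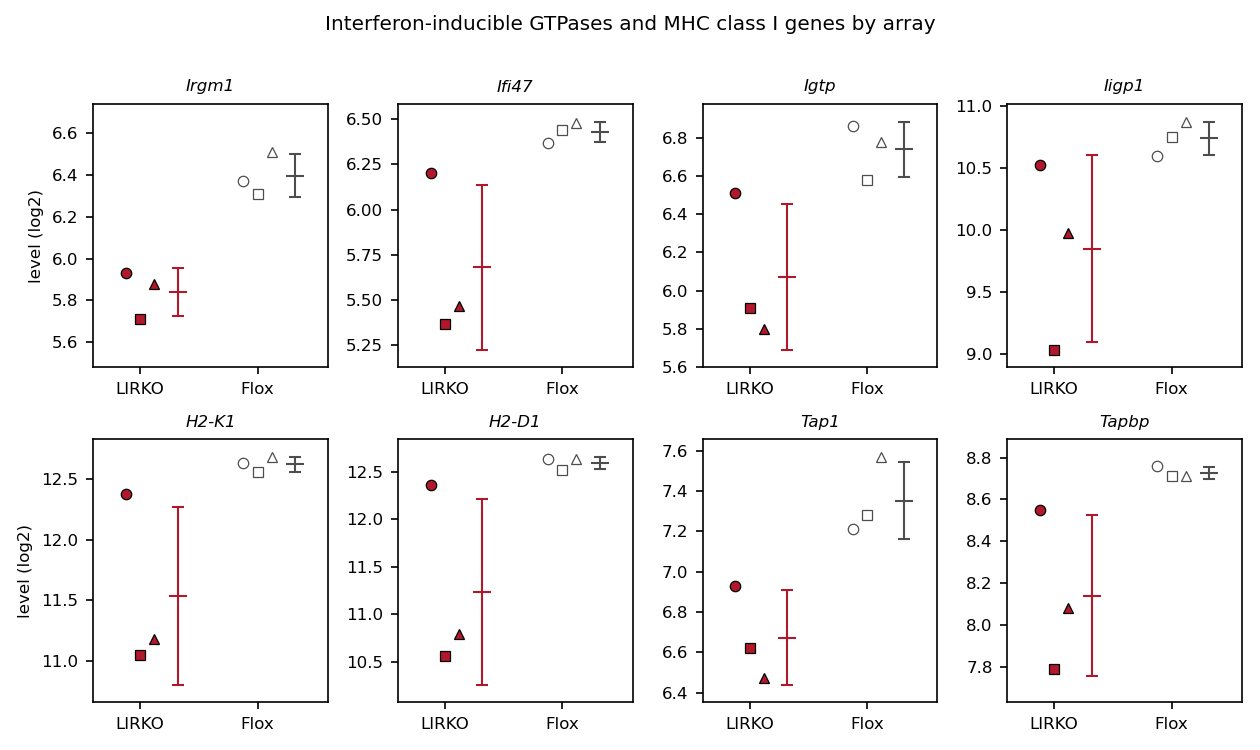
Level (log2, vertical axis, own scale in each panel and not from 0) of 4 immunity-related GTPases and 4 MHC class I genes on the LIRKO and Flox arrays; circles, squares and triangles are replicates 1, 2 and 3, and bars are the mean and SD (n = 3). The genes shown are the 4 with the smallest p in each role group, and the members left out, *Gbp2*, *Gbp3*, *B2m* and *Tap2*, overlapped. Every LIRKO value lies below every Flox value in all 8 panels, with LIRKO 1 the nearest to Flox in each. Of all genes, 16.7% lay wholly below Flox.

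MHC class I genes had the lowest median of the role groups, -0.73, with per-array medians of -0.20, -1.14 and -0.94 on LIRKO 1, 2 and 3, but after cyclic loess the median was -0.26 and that of the GTPases, at -0.44, was lower. *H2-D1*, a class I heavy chain, read 12.36, 10.56 and 10.79 on LIRKO 1, 2 and 3, against 12.63, 12.52 and 12.63 on Flox 1, 2 and 3. *H2-K1*, the other classical heavy chain measured, read 12.38, 11.05 and 11.18 in LIRKO, against 12.63, 12.56 and 12.68 in Flox. Both lay wholly below Flox, by a small step on LIRKO 1 (-0.23 and -0.24) and a large one on the others. The differences were -1.36 (standard error 0.45) for *H2-D1* and -1.09 (standard error 0.34) for *H2-K1*, beside medians of -1.09 and -0.89 for the brightest group of probe sets on LIRKO 2 and LIRKO 3, and after cyclic loess they were -0.47 and -0.18. Both genes were read by probe sets whose probes match a family of similar transcripts, so that signal from near-identical class I genes cannot be told apart from theirs. A dimmer *H2-K1* probe set that is not of this family kind read 6.85, 6.96 and 6.64 in LIRKO and 6.79, 7.07 and 6.84 in Flox, a difference of -0.08 with overlap. The remaining *H2-K1* probe set differed by -0.99, and the 2 remaining *H2-D1* probe sets by -1.19 and -0.24, so that the probe sets of each gene disagree in size.

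*B2m* encodes the light chain that every class I molecule shares. Named after its values were seen, it read 12.48, 11.18 and 11.51 on LIRKO 1, 2 and 3, against 12.50, 12.46 and 12.56 on Flox 1, 2 and 3. LIRKO 1 lay among the Flox values, and the mean difference of -0.79 (standard error 0.32, limma adjusted p = 0.237) turned to 0.13 after cyclic loess.

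*Tap1*, a subunit of the transporter that carries peptides into the endoplasmic reticulum, read 6.93, 6.62 and 6.47 in LIRKO, against 7.21, 7.28 and 7.57 in Flox. All LIRKO pools were below all Flox pools, the difference was -0.68 (standard error 0.17, 0.625-fold, limma adjusted p = 0.237), LIRKO 1 was at -0.42, and cyclic loess left it at -0.66. A dimmer *Tap1* probe set read 6.49, 7.11 and 7.58 in LIRKO and 6.56, 6.71 and 6.85 in Flox, a difference of 0.35 (standard error 0.27), so that the probe sets of this gene disagree. *Tap2*, its partner, overlapped at 6.74, 6.86 and 6.54 in LIRKO and 6.86, 6.87 and 6.63 in Flox. *Tapbp*, which encodes the loading factor tapasin, read 8.55, 7.79 and 8.08 in LIRKO, against 8.76, 8.71 and 8.71 in Flox. Its groups did not overlap, and its difference of -0.59 (standard error 0.20) was -0.35 after cyclic loess. It stood at -0.18, -0.94 and -0.65 on LIRKO 1, 2 and 3, beside medians of -0.02, -0.47 and -0.38 for probe sets of similar level. The other *Tapbp* probe sets differed by -1.12 and -0.10.

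Most MHC class II genes varied as much among the Flox pools as between the groups. *Cd74*, the invariant chain that guides class II molecules, read 9.83, 8.34 and 8.58 on LIRKO 1, 2 and 3, against 8.59, 9.74 and 9.99 on Flox 1, 2 and 3. Flox 1 was as low as LIRKO 2 and LIRKO 3, LIRKO 1 was as high as Flox 2 and Flox 3, and the difference of -0.52 had a standard error of 0.49. On LIRKO 2 and LIRKO 3 it stood at -1.10 and -0.86, beside medians of -1.09 and -0.89 for probe sets of similar level, and after cyclic loess the difference was -0.10. Without LIRKO 1 it was -0.98 (limma adjusted p = 0.0385), without Flox 1 it was -0.95, and without LIRKO 2 it was -0.23. *H2-Aa*, a chain of the I-A molecule, read 8.46, 7.97 and 7.71 in LIRKO and 7.65, 8.42 and 8.47 in Flox. *H2-Eb1*, a chain of the I-E molecule, read 8.60, 8.25 and 8.22 in LIRKO and 8.06, 8.72 and 8.68 in Flox, and its difference of -0.13, beside medians of -0.47 and -0.38 for probe sets of similar level on LIRKO 2 and LIRKO 3, became 0.11 after cyclic loess. In *H2-Aa* and *H2-Eb1* Flox 1 was the lowest of the 6 arrays and LIRKO 1 stood with Flox 2 and Flox 3. *H2-Ab1*, the partner chain of *H2-Aa*, read 7.55, 7.28 and 7.16 in LIRKO and 7.28, 7.52 and 7.69 in Flox, a difference of -0.17 with overlap. *Ciita*, the switch for class II transcription, read 6.51, 6.95 and 6.64 in LIRKO and 6.52, 6.89 and 6.47 in Flox.

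Markers of macrophages and Kupffer cells were low on Flox 1 as well. Of 12 listed, 11 were measured, none is in the dimmest 25% of Flox signals, and their median level was 8.45, 7.22 and 8.0 on LIRKO 1, 2 and 3, against 7.43, 8.35 and 8.08 on Flox 1, 2 and 3. The LIRKO 2 median was lower still than that of Flox 1. Above the Flox mean were 10 of the 11 on LIRKO 1, 1 on LIRKO 2 and 3 on LIRKO 3. Their median differences on these arrays were 0.41, -0.66 and -0.30, and the median over all 3 was -0.25, or -0.06 after cyclic loess. The part of macrophage number in the class II values was not tested, and in RNA of whole liver fewer cells of a type and less RNA per cell cannot be told apart. Dendritic cell markers (5 of 7 measured) had median levels of 6.45, 7.03 and 6.64 in LIRKO and 6.43, 6.56 and 6.43 in Flox. B cell markers (5 of 6 measured) stood at 7.55, 7.14 and 7.15 in LIRKO and 7.39, 7.41 and 7.40 in Flox. Neither of these lists was low on Flox 1 alone, but 2 further lists were lowest on Flox 1 of the 6 arrays. General leukocyte markers (4 of 4 measured) stood at 6.53, 6.55 and 6.86 in LIRKO and 6.02, 6.49 and 6.35 in Flox. Endothelial markers (7 of 8 measured) stood at 7.09, 7.04 and 7.18 in LIRKO and 6.66, 7.12 and 7.28 in Flox. The low value on Flox 1 was therefore not particular to macrophage markers.

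*H2-DMa*, a chain of the molecule that helps load peptides onto class II, stood apart from its group. It read 8.28, 9.58 and 9.36 on LIRKO 1, 2 and 3, against 7.88, 8.20 and 8.03 on Flox 1, 2 and 3. Every LIRKO array was above every Flox array, LIRKO 1 only just, and the difference was 1.03 (standard error 0.33, 2.04-fold, limma adjusted p = 0.237). Probe sets of similar level had medians of -0.25 and -0.16 on LIRKO 2 and LIRKO 3, and after cyclic loess the difference was 1.30. The size rests on a probe set that reads a family of similar transcripts. The other *H2-DMa* probe set read 7.99, 8.10 and 8.07 in LIRKO and 7.53, 7.84 and 7.84 in Flox, a difference of 0.32 (standard error 0.13, limma adjusted p = 0.238). For LIRKO 1 both probe sets gave nearly the same difference, 0.24 and 0.26.

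**Figure D4:**
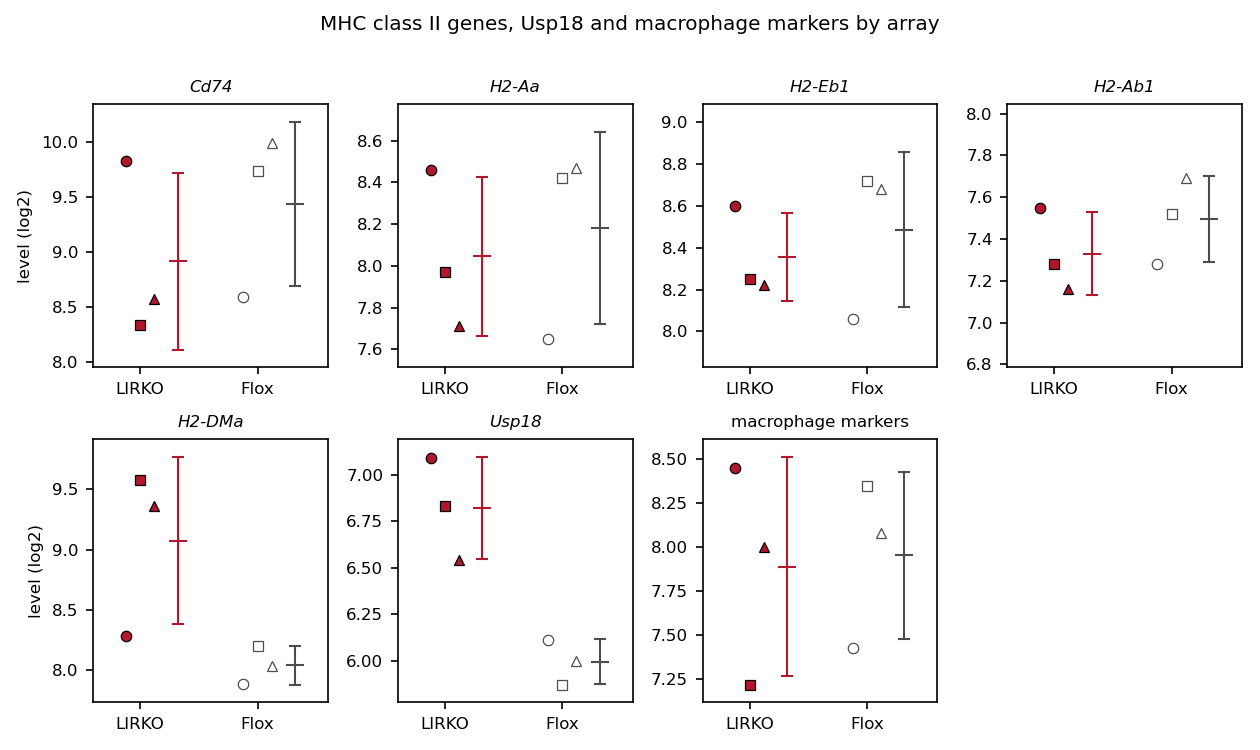
Level (log2, vertical axis, own scale in each panel and not from 0) of 5 MHC class II genes and *Usp18*, and the median level of 11 macrophage and Kupffer cell markers, on the LIRKO and Flox arrays; circles, squares and triangles are replicates 1, 2 and 3, and bars are the mean and SD (n = 3). Flox 1 is the lowest Flox array for *Cd74*, *H2-Aa*, *H2-Eb1*, *H2-Ab1* and the macrophage markers, and the groups separate for *H2-DMa* and *Usp18* only.

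The chemokines *Cxcl9* and *Cxcl10* draw T cells to tissues after type II interferon. *Cxcl9* read 5.23, 5.29 and 5.09 on LIRKO 1, 2 and 3, against 5.31, 5.69 and 5.57 on Flox 1, 2 and 3. The groups did not overlap, and the difference was -0.32 (standard error 0.14, limma adjusted p = 0.243), with LIRKO 1 at -0.29 and the value after cyclic loess at -0.41. *Cxcl10* read 3.76, 3.96 and 3.64 in LIRKO and 3.66, 4.03 and 3.78 in Flox, with the groups intermixed and a signal at percentile 7.87 of all probe sets. T cell markers (8 of 9 measured) had median levels of 5.55, 6.33 and 6.06 in LIRKO and 5.49, 5.67 and 5.45 in Flox. Their median difference was 0.31, or 0.29 after cyclic loess, with all 8 above 0. By array it was -0.01, 0.50 and 0.40 on LIRKO 1, 2 and 3. On LIRKO 2 and LIRKO 3, probe sets with a median Flox level of 5.24 had medians of 0.18 and 0.12, and those at 5.83 had 0.16 and 0.09. Of the 8 markers, 4 are in the dimmest 25% of Flox signals. A median above 0 was not confined to T cell markers. It was 0.26 for NK cell, 0.45 for stellate cell, 0.35 for B cell and 0.23 for dendritic cell markers. General leukocyte and endothelial markers stood at 0.10 and 0.07. Medians were below 0 for markers of neutrophils (-0.02), cholangiocytes (-0.01), macrophages (-0.25) and hepatocytes (-0.61).

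Further genes of the same pathways were read from a list of 50 other interferon genes and a list of 29 other antigen presentation genes. Of the other interferon genes 29 were measured, 0 passed the adjusted threshold in either direction, 3 were lower and 1 was higher at an unadjusted p under 0.05, where 15.6% and 7.13% of all genes were, so that neither count was above the share over all genes. The median difference was -0.19, or -0.08 after cyclic loess, and 0.01 on LIRKO 1. *Irgm2*, another immunity-related GTPase, differed by -0.33, -1.01 and -0.63 on LIRKO 1, 2 and 3, with means of 7.35 ± 0.339 in LIRKO and 8.01 ± 0.214 in Flox (SD, n = 3 each). Probe sets of similar level had medians of -0.01, -0.25 and -0.16 on these arrays. *Ifnb1*, the gene of interferon beta, averaged 6.05 ± 0.672 in LIRKO and 5.17 ± 0.197 in Flox (SD, n = 3 each), with LIRKO 1 only 0.11 above Flox and the others 1.28 and 1.26 above. For *Ifnb1* the medians of probe sets of similar level were -0.03, 0.18 and 0.12 on LIRKO 1, 2 and 3. The *Ifnb1* signal in Flox was dim, at percentile 24 of all probe sets. The interferon genes *Ifna2* and *Ifng* of the same list differed by 0.02 and -0.19, with Flox signals at percentiles 56 and 2.66.

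Of the other antigen presentation genes 22 were measured, 0 passed the adjusted threshold in either direction, 6 were lower and 0 were higher at an unadjusted p under 0.05, where 15.6% and 7.13% of all genes were. The median difference was -0.12, and -0.02 on LIRKO 1. The smallest p values belonged to *Psmb9* and *Psmb8*, subunits of the immunoproteasome that cuts peptides for class I and that interferon induces. *Psmb9* averaged 7.39 ± 0.280 in LIRKO and 8.05 ± 0.121 in Flox (SD, n = 3 each), and differed by -0.53, -0.46 and -0.98 on LIRKO 1, 2 and 3. *Psmb8* averaged 6.84 ± 0.599 in LIRKO and 7.89 ± 0.155 in Flox (SD, n = 3 each), and differed by -0.38, -1.27 and -1.52. Probe sets of similar level had medians of -0.01, -0.25 and -0.16 on LIRKO 1, 2 and 3 for both genes. Both genes had a limma adjusted p of 0.237, and on LIRKO 1 their differences stood on either side of that of *Tap1*, -0.42. Related proteasome genes of the list went the other way on LIRKO 1. *Psmb10* differed by 0.17, -0.97 and -0.94 and *Psme1* by 0.27, -1.01 and -1.05 on LIRKO 1, 2 and 3. Medians of probe sets of similar level to these 2 were -0.02, -0.47 and -0.38.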

How the data were processed

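The authors made the deposited log2 values in R with affy and limma by robust multichip averaging, RMA, with no version given. The values, 1 for each probe set on each array, were not scaled further. The 66 array control probe sets of 12488 were left out, and 12422 were tested with no filter on dim signals. Arrays give no counts, so the number of arrays limits the precision. LIRKO and Flox arrays were set against each other in R 4.3.3 with limma 3.58.1 (functions lmFit and eBayes) with Benjamini-Hochberg adjustment over all probe sets and a threshold of 0.05, as the study's methods name. Gene symbols came from the platform annotation: 10833 probe sets had 1 symbol, 396 had several and 1193 had none, and only the first kind was named.

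The genes named with a difference are the 4 with the smallest p in each role group, and *B2m*, which was named after its values were seen. For the further pathway lists they are the 2 with the smallest p, and *Ifna2*, *Ifng*, *Psmb10* and *Psme1*, which were named after their values were seen. The members and all lists were chosen with earlier results of these data known, so that counts over them describe these arrays and are not independent evidence. Alternatives were quantile normalization, cyclic loess, a filter leaving out probe sets under the 25th percentile of mean signal, the methods' t-test (two-sided, unequal variance), another variance model, the replicate number as a block, averaging all probe sets of a gene, LIRKO 1 alone and leaving out each array. Motifs were counted in the 250 bases before each RefSeq start site, on both strands, and a gene with several start sites counted once. Tables were made in Python 3.11.15 (pandas 2.3.3, numpy 2.4.6) and figures in matplotlib 3.10.9.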

Additional observations from a re-analysis of the deposited data

How the results depend on the processing

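The members' median difference was -0.18 and lay between -0.22 and -0.15 under quantile normalization, cyclic loess, the filter on dim probe sets and averaging all probe sets of a gene. It was -0.06 with LIRKO 1 alone, and from -0.28 to -0.15 when 1 array was left out, with -0.28 without LIRKO 1 and -0.27 without Flox 1. The count of members called higher was 1 with LIRKO 1 alone and from 0 to 2 when 1 array was left out, and the count called lower ran from 0 to 15, with the 2 and the 15 both from leaving out LIRKO 1, after which the LIRKO arrays left are the 2 that share the shift with level. No member was called under the other alternatives. Among genes named with a difference, the direction turned for *Ifnar2* (0.04 with quantile normalization, 0.08 with cyclic loess, 0.40 on LIRKO 1 alone), *H2-Eb1* (0.03, 0.11 and 0.11 under the same settings) and *B2m* (0.13 with cyclic loess). On LIRKO 1 alone it also turned for *Ifngr1* (0.03), *Irf7* (0.11), *Cd74* (0.39) and *H2-Ab1* (0.05). With 1 array left out, *Ifnar2* ran from -0.29 to 0.10 and *Cxcl10* from -0.13 to 0.06. Among members given by level only, cyclic loess turned *Irf1* and *H2-Aa* to 0.04 and *Mx1* to -0.06. The cause of these changes was not tested. With the replicate number as a block (replicate block) the median was -0.18 and 0 members were called. The deviations of same-numbered arrays correlated at 0.32, 0.40 and 0.09, and those of different-numbered arrays at -0.37 to 0.17. The 0.32 and 0.40 were the highest of these values, but the third same-numbered value, 0.09, lay below the different-numbered 0.17. The correlations therefore do not settle whether the numbers pair the pools. The arrays were taken as unpaired because the study's methods name no pairing. Members whose groups did not overlap numbered 14 below and 2 above with cyclic loess, 16 and 2 with quantile normalization, and 13 and 2 among the 35 left by the filter on dim probe sets. The steps before the deposited values were not rerun, since they need raw images, which were not used here.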
